A study of Mus musculus with 3 samples.

Results

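The 9 genes described here encode checkpoint receptors of cytotoxic lymphocytes: Klrg1, Tigit, Cd96, Cd226, Lag3, Havcr2, Pdcd1, Ctla4 and Btla. They were taken by symbol from the 22350 protein-coding genes annotated on the mouse genome build mm9, and every Runx3-bound and H3K4me1-marked region that shared at least 1 bp with the gene body or its 20 kb flanks was listed. These 9 windows held 21 of the 15524 Runx3 regions, called peaks below, and 56 of the 49902 H3K4me1 regions. The data came from chromatin immunoprecipitation sequencing (ChIP-seq) of resting natural killer cells (NKC) that had been freshly isolated from the spleens of ICR mice. There were 3 samples, 1 for each precipitating serum: a home-made polyclonal antibody to the transcription factor Runx3, a monoclonal antibody to H3K4me1 (histone H3 carrying a single methyl group on lysine 4), and non-immune rabbit serum (NIS) as the control. The labels give no age, genotype or treatment beyond strain and resting state. The study's methods name WT and Runx3-/- spleens as sources of NKC without saying which went into ChIP-seq. Regions bound by Runx3 presuppose cells that make it, and the study compares Runx3-/- with WT cells in expression only. The labels name an NKp46 sort where the study's methods name DX5. Only the coordinates of the called regions were at hand, 1 list for Runx3 and 1 for H3K4me1. A window without a region therefore means that none was called there, the number of reads behind a region is unknown, and with no replicate lists no difference below was tested.

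Inhibitory receptors restrain lymphocytes, most of them through tyrosine motifs in their cytoplasmic tails that recruit phosphatases once a ligand is bound. Tigit, Cd96 and Cd226 compete for nectin and nectin-like molecules on the target cell, with Tigit inhibiting and Cd226 activating NKC. Runx3 binds the RUNX consensus and serves as a lineage factor of NKC and CD8 T cells, while H3K4me1 marks enhancers and the flanks of active promoters.

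Runx3 peaks were called in the windows of 7 of the 9 genes, against 51% of all protein-coding genes. Klrg1 held 8 peaks and Cd226 held 6, so that these 2 genes took 14 of the 21 peaks (66.7%). The other 5 bound genes held 1 peak (Tigit, Lag3, Havcr2) or 2 peaks (Cd96, Pdcd1), and Ctla4 and Btla held 0. At least 6 peaks were found for 2.19% of protein-coding genes, and at least 8 for 0.828%. The median gene had 1 peak (interquartile range 0 to 2), so the 5 genes with 1 or 2 peaks lay within the middle of the distribution over genes and Klrg1 and Cd226 lay far above it.

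H3K4me1 regions were present in all 9 windows, against 74% of protein-coding genes, but their extent differed widely. The share of the window under H3K4me1 ran from 75.7% at Klrg1 and 59.3% at Cd226 through 29.8% at Tigit and 29.2% at Lag3 to 18.1% at Havcr2 and at Pdcd1 and 16.5% at Cd96. Ctla4, at 7.38%, equalled the median of all protein-coding genes (7.38%, interquartile range 0 to 17.3%), and Btla, at 4.93%, was below it. A cover as high as that of Klrg1 was seen in 0.134% of genes and one as high as that of Cd226 in 0.85%. The first base of the gene lay inside an H3K4me1 region for 7 of the 9 genes, Pdcd1 and Ctla4 being the exceptions, against 34.5% of protein-coding genes. A Runx3 peak reached within 1 kb of the first base at Tigit, Cd96, Cd226 and Lag3, which is 4 of 9 against 25.8%. The map of the 9 loci and the plot of their places among all genes show these values.

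**Figure D1:**
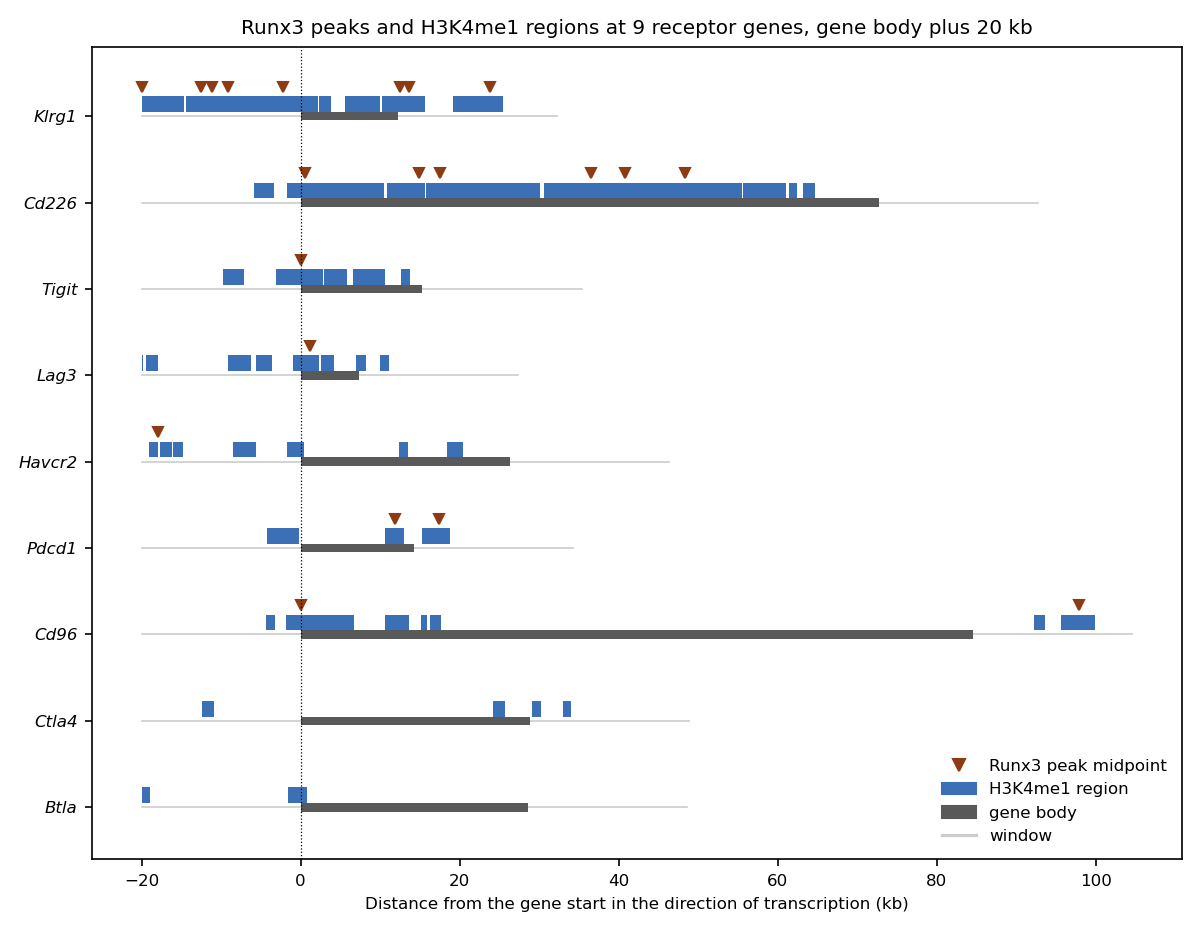
Map of the 9 receptor genes drawn to one scale, in order of H3K4me1 cover, with distance from the gene start in kb on the x axis. Triangles mark midpoints of Runx3 peaks, blue boxes H3K4me1 regions clipped to the window, grey boxes the gene body. Klrg1 has its 8 peaks on both sides of the gene, Cd226 has its 6 within it, and Ctla4 and Btla have none.

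**Figure D2:**
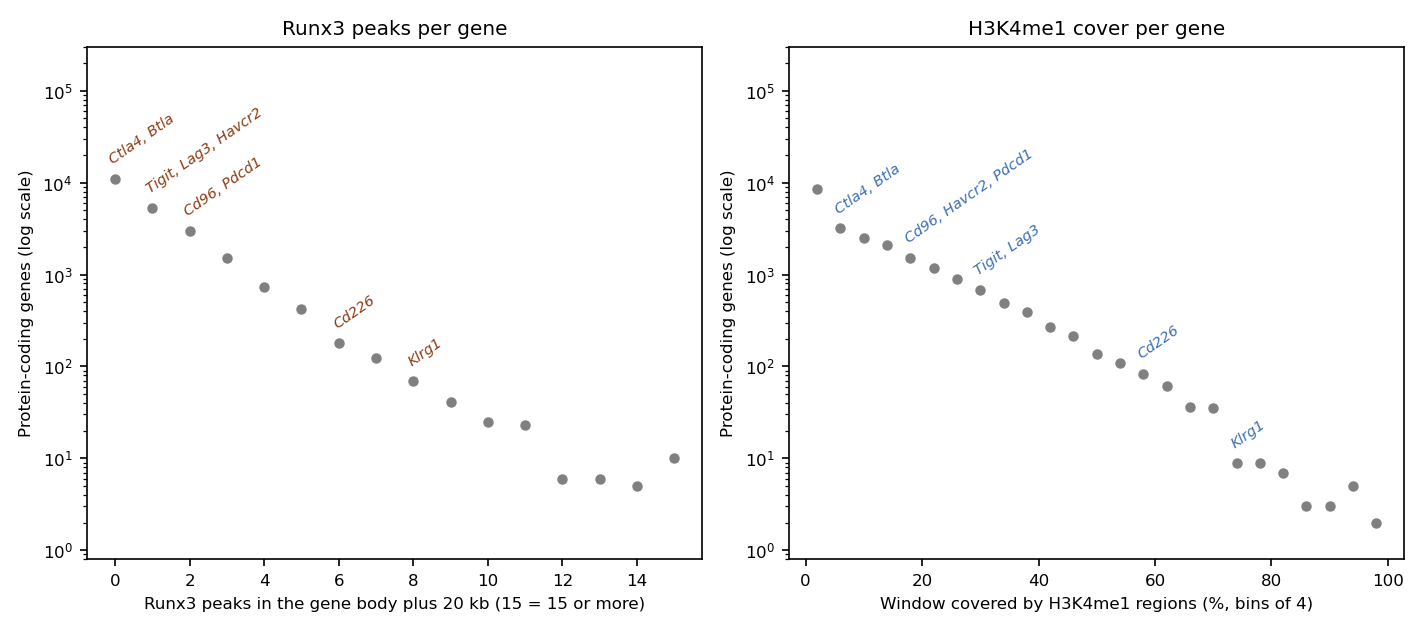
Number of protein-coding genes (log scale, 22350 in all) by Runx3 peaks per window (left) and by the percentage of the window under H3K4me1 (right), each dot being 1 bin. Receptor names are written above the bin they fall in, with Klrg1 at 8 peaks and 75.7%. Ctla4 and Btla are at 0 peaks and at covers of 7.38%, the median of all genes, and 4.93%.

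Klrg1 encodes a lectin-like inhibitory receptor for cadherins and is a marker of mature NKC. The gene (ENSMUSG00000030114.8, chr6:122220614-122232900, minus strand) spans 12287 bp, and no other annotated gene reached into its window. Distances are given from the first base of the gene to the peak midpoint in the direction of transcription, negative values being upstream. Its peaks lay at -20, -12.5, -11.1, -9.08 and -2.16 kb and, beyond the 3′ end, at 12.5, 13.6 and 23.9 kb. No midpoint fell in the gene body, although the peak at 12.5 kb (chr6:122219892-122220895) shared the last bases of the gene. The first peak (chr6:122252405-122253324) straddled the edge of the window and was nearer to the start of M6pr, a receptor that carries lysosomal enzymes, at 5.87 kb than to that of Klrg1. The other 7 had Klrg1 as the nearest annotated start.

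Peak widths at Klrg1 ran from 576 to 1004 bp (median 911 bp), and the gaps between neighbouring midpoints from 1106 to 14664 bp (median 6923 bp). All 8 peaks lay wholly within H3K4me1, in 5 of the 8 regions of the window. The widest region, of 9714 bp from -14.4 to -4.69 kb, held the 3 peaks from -12.5 to -9.08 kb. The next, of 6889 bp, ran over the gene start from -4.69 to 2.2 kb and held the peak at -2.16 kb. Regions less than 1 kb apart formed a run of 26.1 kb over 4 regions, and 82.9% of the gene body was covered. The Klrg1 locus was thus marked by H3K4me1 on both sides and within, while its peaks flanked the gene.

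The RUNX consensus, searched on both strands as TGTGGT or TGTGGC and, with a CpG inside, as TGCGGT or TGCGGC, was present in each of the 8 Klrg1 peaks, with 1 to 3 matches a peak. The match nearest to the midpoint of each peak is shown here with its flanks, because Klrg1 had more peaks than any other of these genes and the sites let its peaks be compared. Each run of 30 bases was read from mm9, 5′ to 3′ on the strand that carries the match, and capitals mark the match.
Klrg1 peak 1: gctacatgcttcTGTGGCagaaaccacacc
Klrg1 peak 2: tgggagtcaggaTGTGGCctgacagtccac
Klrg1 peak 3: aagatgcttcgtTGTGGTttagggtcagac
Klrg1 peak 4: agctttgtctctTGTGGTtaaaccacccca
Klrg1 peak 5: tgacaagggacaTGTGGTgatggttaatgc
Klrg1 peak 6: atctagagtaagTGTGGTtgctgtgtgaag
Klrg1 peak 7: ctaatttatgggTGTGGTggtactttctcc
Klrg1 peak 8: agagcacttgccTGTGGTtttactgaagag
Peaks 1 and 2 had TGTGGC in this place and the other 6 had TGTGGT. The run of peak 1 also holds a further RUNX match, the reverse complement of TGTGGT, left in small letters. The match was 4 bp from the midpoint in peak 1 and 205 bp from it in peak 7. In peaks 2 and 7 it lay outside the central 200 bp, which there held 0 matches. Beside RUNX, the ETS consensus (AGGAAGT or CGGAAGT) was found in peaks 1, 4 and 7, and the AP-1 consensus (TGACTCA or TGAGTCA) in peaks 4, 7 and 8.

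The central 200 bp of the peak nearest to the Klrg1 start, peak 5, are given for the wider sequence context (chr6:122234958-122235157, plus strand, mm9), with RUNX matches in capitals, here on the minus strand and so read as the reverse complement of TGTGGT.
Klrg1 peak 5 centre: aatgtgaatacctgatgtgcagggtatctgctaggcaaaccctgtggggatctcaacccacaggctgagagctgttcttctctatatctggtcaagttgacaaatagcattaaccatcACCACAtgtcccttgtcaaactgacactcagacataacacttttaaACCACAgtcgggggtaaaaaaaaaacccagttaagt
It held 2 matches, and the whole peak held 3.

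Tigit encodes an inhibitory receptor whose principal ligand is Pvr (CD155). The gene (ENSMUSG00000071552.4, chr16:43648974-43664297, minus strand) had 1 Runx3 peak, of 995 bp (chr16:43663755-43664749), with its midpoint at 0.045 kb in the untranslated part of exon 1 of 4. That peak lay in an H3K4me1 region of 5890 bp which ran over the start from -3.13 to 2.75 kb. With the next 2 regions it formed a run of 13.7 kb, and 70.2% of the gene body was covered. Tigit was thus a single promoter peak in a broadly marked gene. The peak held 7 RUNX matches (3 of TGTGGT and 4 of TGTGGC), as many as any of the 21 peaks, of which 1 lay in the central 200 bp. The match nearest to the midpoint is shown in capitals within its 30 bases (chr16:43664220-43664249, plus strand, mm9), because this peak covers the first exon.
Tigit: cagcaaagtggaTGTGGCctctcctccaac
It is TGTGGC and lies 17 bp from the midpoint.

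Cd96 encodes the third receptor for Pvr, with inhibitory action in mouse NKC. The gene (ENSMUSG00000022657.9, chr16:46035770-46120364, minus strand) is the longest of the 9, at 84595 bp. It too had a promoter peak, of 958 bp (chr16:46119823-46120780), at 0.062 kb in the untranslated part of exon 1 of 15, inside an H3K4me1 region of 8532 bp from -1.81 to 6.72 kb. Its second peak (chr16:46022039-46023015) lay at 97.8 kb, beyond the 3′ end, 4.24 kb from a U6 small nuclear RNA. H3K4me1 covered 14.1% of the gene body, and the regions lay near the 5′ end and beyond the 3′ end. The Cd96 promoter peak held 2 RUNX matches and its downstream peak held 3.

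Cd226 encodes DNAM-1, the activating counterpart of Tigit and Cd96. The gene (ENSMUSG00000034028.8, chr18:89366823-89439593, plus strand) spans 72771 bp, and all 6 of its peaks lay in it. The first (chr18:89367150-89367625, 476 bp, the narrowest of the 21) was at 0.565 kb in intron 1 of 6. The other 5 were at 14.9, 17.5, 36.5, 40.8 and 48.3 kb, all in intron 3 of 6, with gaps of 2598 to 19039 bp between neighbours. No peak lay in either flank. H3K4me1 covered 85.8% of the gene body, the highest share of the 9, in regions of up to 14429 bp. Of the 11 regions, 9 lay less than 1 kb apart and formed a run of 66.4 kb from upstream of the start to near the 3′ end. Each peak lay wholly within H3K4me1, in 5 of the 11 regions, the region of 11593 bp holding 2. The peaks held 1 to 3 RUNX matches each. The fourth had none in its central 200 bp, and the T-box consensus (TCACACC) occurred in the third and the fifth, the only peaks of the 21 with one.

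The 3 receptors for nectin ligands thus shared a Runx3 peak less than 1 kb from the first base and an H3K4me1 region over it. Lag3 had both as well, and the 3 differed in the rest of the locus. Per 100 kb of window, Cd226 had 5.32 peaks, Tigit 1.81 and Cd96 1.61, against a median of 0.459 over all genes (interquartile range 0 to 2.35). Klrg1 had 15.3. On this scale, which removes the length of the window, Klrg1 remained first and Cd226 second, and Pdcd1 followed with 3.69, Lag3 with 2.11 and Havcr2 with 1.51. Among the genes of their ligands, which need not be active in NKC, 3 of 6 (Pvr, Pvrl2 and Pvrl4 of Pvr, Pvrl1, Pvrl2, Pvrl3, Pvrl4 and Cadm1) had a Runx3 peak in the same window, against 51% of all genes, and 6 of 6 an H3K4me1 region, against 74%. None of the 6 had a peak that close to its start, and their median cover was 4.54%. Pvr itself, the shared ligand, had 1 peak and a cover of 28.6%.

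Lag3 encodes an inhibitory receptor that is related to CD4 and binds MHC class II. The gene (ENSMUSG00000030124.2, chr6:124854379-124861723, minus strand) is the shortest of the 9, at 7345 bp, and shares its window with 4 other protein-coding genes, Cd4 among them. It had 1 peak, of 637 bp (chr6:124860171-124860807), at 1.23 kb in intron 2 of 7 and 0.42 kb from a further annotated Lag3 start. The peak lay in an H3K4me1 region of 3306 bp from -0.947 to 2.36 kb, and 57.8% of the gene body was covered. It was narrower than the median of the whole list (825 bp). The sequence at its centre (chr6:124860389-124860588, plus strand, mm9) is shown because, unlike that of Klrg1 above, it held 0 RUNX matches.
Lag3 centre: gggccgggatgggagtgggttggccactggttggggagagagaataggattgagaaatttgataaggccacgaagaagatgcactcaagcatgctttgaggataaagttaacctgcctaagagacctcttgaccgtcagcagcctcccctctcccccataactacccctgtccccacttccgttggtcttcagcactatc
A single ETS match (as its reverse complement) but no RUNX match is in this run. The nearest of the 2 RUNX matches of the peak was 167 bp from the midpoint, at chr6:124860641-124860670 on the plus strand, in capitals here.
Lag3 site: acaggaaggctgTGTGGTtttagaggacac
The match is TGTGGT, the variant also seen at most Klrg1 sites.

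Havcr2 encodes TIM-3, which binds galectin-9 and phosphatidylserine. The gene (ENSMUSG00000020399.8, chr11:46268437-46294757, plus strand) had 0 Runx3 peaks in its body. The 1 peak of its window, of 1081 bp (chr11:46250015-46251095), lay at -17.9 kb and 48 bp from the start of Med7, a subunit of the Mediator complex. This was the only one of the 21 peaks whose midpoint lay outside H3K4me1: it touched a region on either side, with 76.8% of its bases shared. It had 67 CpG dinucleotides, the most of the 21 peaks (median 8), and 1 RUNX match, of the variant TGCGGT, which is shown for comparison with the sites above.
Havcr2 window, Med7 start: acagacttaggcTGCGGTcgccaaccgccg
The run is chr11:46250524-46250553 on the minus strand, with the match in capitals. Havcr2 itself had a region of 2112 bp from -1.73 to 0.377 kb over its start and further regions downstream of it, so that 13.4% of the gene body was marked. It was the bound gene of the 9 whose only peak lay at the start of another gene.

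Pdcd1 encodes PD-1, the receptor for the ligands Cd274 and Pdcd1lg2. The gene (ENSMUSG00000026285.6, chr1:95934884-95949130, minus strand) had peaks away from its start only. The first, of 717 bp (chr1:95936909-95937625) was at 11.9 kb in intron 3 of 4. The other, of 1300 bp (chr1:95931128-95932427), was the widest of the 21 and lay beyond the 3′ end at 17.4 kb, nearer to the start of the sialidase gene Neu4 (13.6 kb away). The first base of the gene was outside H3K4me1 by 172 bp, since the nearest region, of 4077 bp, ran from -4.25 to -0.172 kb. Each peak lay wholly in 1 of the other 2 regions, and 16.2% of the gene body was covered. The peaks were rich in RUNX matches, with 5 and 7, of which 1 each lay in the central 200 bp. The centre of this first peak (chr1:95937167-95937366, plus strand, mm9) is printed as the counterpart of the Lag3 centre, with the RUNX match in capitals. The intron was assigned at the midpoint only, and the run also takes in bases of the neighbouring exon.
Pdcd1 peak 1 centre: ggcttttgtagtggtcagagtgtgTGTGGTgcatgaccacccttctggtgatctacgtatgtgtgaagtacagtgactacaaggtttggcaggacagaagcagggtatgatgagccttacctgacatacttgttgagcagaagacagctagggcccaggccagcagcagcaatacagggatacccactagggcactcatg
It held 1 match, TGTGGT, at a distance of 73 bp from the midpoint.

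Ctla4 and Btla had no Runx3 peak in their windows, and neither did 10947 of the 22350 protein-coding genes. Ctla4 competes with the costimulatory receptor Cd28 for Cd80 and Cd86. The gene (ENSMUSG00000026011.6, chr1:60943844-60972676, plus strand) had 4 H3K4me1 regions of 1015 to 1545 bp, all narrower than the median of the whole list (1801 bp). The nearest to its start was 10933 bp away, and 5.36% of the gene body was covered. Its nearest Runx3 peak was at 90.8 kb. Btla binds Tnfrsf14 (HVEM). The gene (ENSMUSG00000052013.7, chr16:45224428-45253008, plus strand) differed from Ctla4 in having a region of 2365 bp over its start, from -1.56 to 0.804 kb. The only other region, of 1275 bp, lay at the upstream edge of the window, 2.82% of the gene body was covered, and the nearest Runx3 peak was at -65.8 kb. H3K4me1 without Runx3 was thus present at the start of Btla and absent from that of Ctla4.

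The number of peaks depended on the width of the flanks in different ways, as the plot of peaks by flank shows. Cd226 had 6 peaks with no flank and the same 6 up to 20 kb. Klrg1 rose from 1 peak with no flank, the one at the 3′ end, through 3 at 5 kb and 4 at 10 kb to 8 at 20 kb, and had 9 at 50 and at 100 kb. Tigit had 1 peak from 0 to 20 kb and 4 at 50 kb. Lag3 had 1 up to 50 kb and 6 at 100 kb, and Havcr2 had 6 at 100 kb as well. Ctla4 and Btla had 0 up to 50 kb and 1 each at 100 kb. By midpoint, the peaks of Klrg1 were therefore outside the gene, whereas those of Cd226 were inside.

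**Figure D3:**
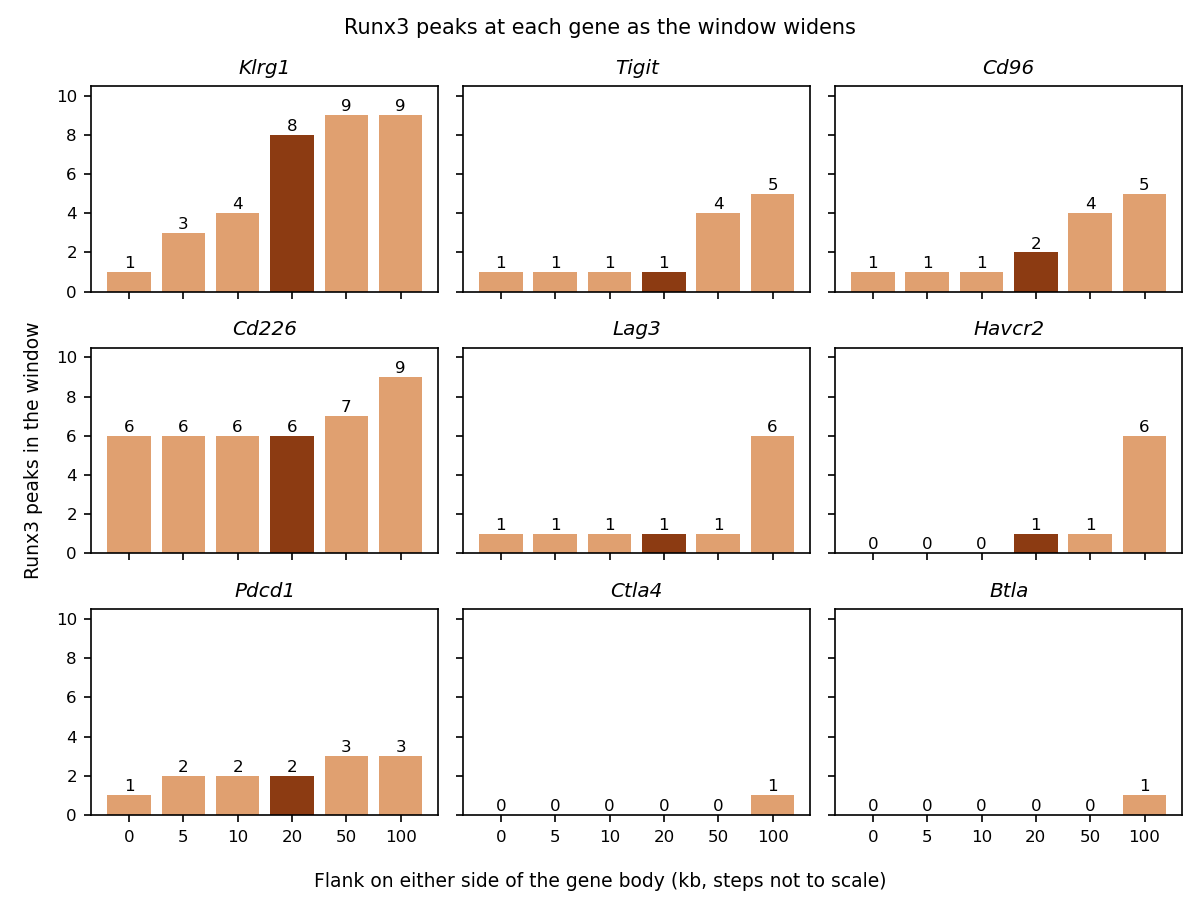
Runx3 peaks (y axis, count above each bar) sharing at least 1 bp with the gene body and a flank of 0 to 100 kb on either side (x axis), for each of the 9 genes, with the 20 kb flank in dark brown. Cd226 is at 6 from 0 to 20 kb, Klrg1 goes from 1 to 8 over the same steps, and Ctla4 and Btla stay at 0 up to 50 kb.

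Over the 21 peaks together, all 21 (100%, 95% Wilson interval 84.5 to 100%) shared bases with an H3K4me1 region, against 95.7% of the whole list, and 20 of 21 (95.2%, 77.3 to 99.2%) had the midpoint inside one, against 83.6%. The interval of the first share holds the value of the whole list, and all such intervals, here and below, cover counting error only. They take the peaks as independent, although 14 of the 21 came from Klrg1 and Cd226, and are no test. Conversely, 18 of the 56 H3K4me1 regions (32.1%, 21.4 to 45.2%) had a Runx3 peak, against 28.6% of the whole list, so most marked regions at these genes had none. Within their regions the 20 midpoints had a median position of 0.676, where 0 is a region's edge and 1 its middle, and those of the whole list at 0.664. The receptor peaks had a median width of 902 bp (476 to 1300 bp), with 12 of 21 wider than the median of the list. H3K4me1 regions had a median of 2076 bp at the receptors and of 1801 bp over the whole list.

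Most receptor peaks were remote from any annotated transcript start: 14 of 21 (66.7%, 45.4 to 82.8%) lay more than 5 kb away, against 45.1% of the whole list, and 5 of 21 (23.8%, 10.6 to 45.1%) lay under 1 kb, against 39.1%. The lower end of the first interval was just above the value of the whole list, and the second interval held it. Of the 14 remote peaks, 7 at Klrg1 and 5 at Cd226 came from 2 loci, so the peaks are not independent draws. For 17 of the 21 peaks the nearest annotated start was that of the receptor gene itself. The exceptions were the outermost upstream peak of Klrg1 and the peaks near U6, Med7 and Neu4.

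Each of the 21 peaks held a RUNX consensus (100%, 84.5 to 100%), against 93.3% of the whole list, with 56 matches or 3.15 per kb against 3.19 per kb. The density of RUNX matches in the receptor peaks was thus that of the list. In the central 200 bp 17 of 21 (81%, 60 to 92.3%) held a match, against 69.2%, the 4 without being Klrg1 peaks 2 and 7, the fourth Cd226 peak and the Lag3 peak. The variants were not equally frequent. TGTGGT was in 18 of 21 peaks (85.7%, 65.4 to 95%) against 65.5% of the list, and TGTGGC in 9 (42.9%, 24.5 to 63.5%) against 54.1%. TGCGGT and TGCGGC were in 2 each (9.52%, 2.65 to 28.9%), against 24.7% and 26.1%. The value of the list lay inside each of these intervals, for TGTGGT at the lower end. The receptor peaks also had a lower GC content (median 42.9%, range 36.3 to 58.1%) than the list (median 50.7%) and fewer CpG dinucleotides (median 8 against 15), and the part of base composition in the variant shares was not tested. Among peaks more than 5 kb from a start, TGTGGT was in 12 of 14 at the receptors (85.7%) and in 78.8% of the list, a smaller gap. The plot of RUNX matches by peak gives the counts behind these shares.

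**Figure D4:**
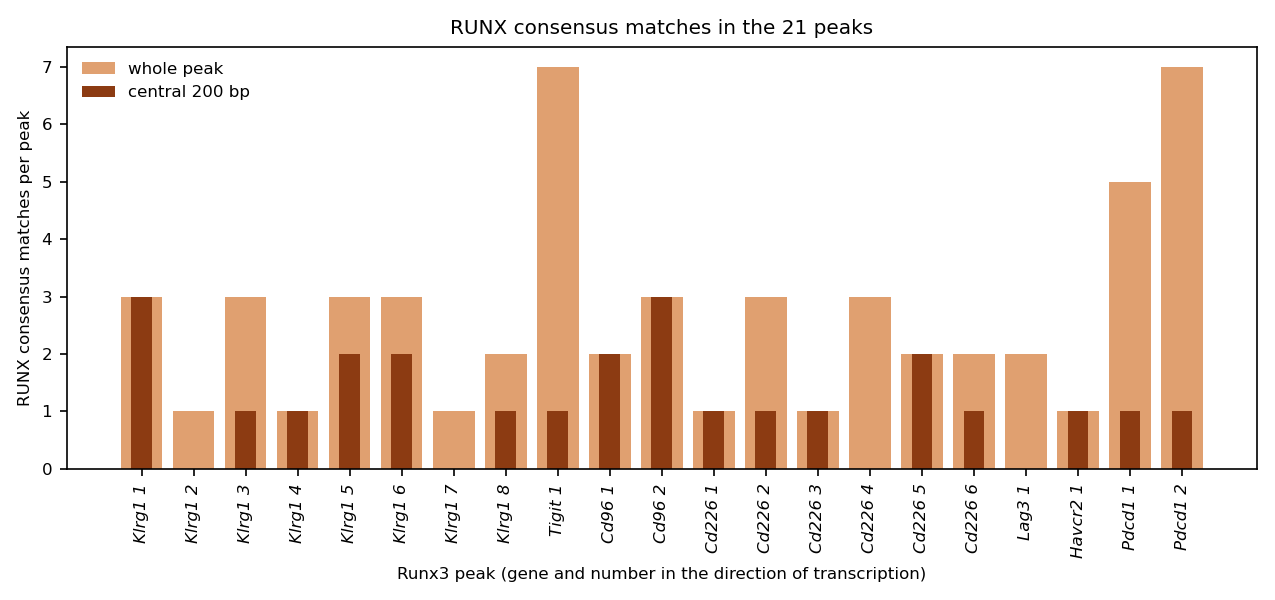
RUNX consensus matches on both strands (y axis) in each of the 21 Runx3 peaks (x axis, gene and peak number in the direction of transcription), for the whole peak in light brown and the central 200 bp in dark brown. Tigit peak 1 and Pdcd1 peak 2 hold 7 matches each, and Klrg1 peaks 2 and 7, Cd226 peak 4 and the Lag3 peak hold none at the centre.

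Of the other motifs, ETS was in 6 of 21 peaks (28.6%, 13.8 to 50%) against 41.8% of the list, AP-1 in 5 (23.8%, 10.6 to 45.1%) against 16.5%, and T-box in 2 (9.52%, 2.65 to 28.9%) against 16.7%. Each interval held the value of the list. ETS matches were at Klrg1, Cd96, Lag3 and Pdcd1, and AP-1 matches at Klrg1, Tigit and Cd96. A match is a run of letters and does not show that a factor was bound.

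Further genes were counted in the same windows, from lists of ligands, related receptors and signalling genes. All 7 signalling genes (Ptpn6, Ptpn11, Inpp5d, Grb2, Csk, Sh2d1a and Sh2d1b1) had a Runx3 peak, against 51% of all genes, and H3K4me1, against 74%. They encode phosphatases, adaptors and a kinase of lymphocyte receptor signalling, not all of it inhibitory. Their median cover was 30.6%, against 18.1% for the 9 receptors and 7.38% for all genes. The phosphatase gene Ptpn6 (SHP-1) had 5 peaks and a cover of 60.6%, and Inpp5d (SHIP-1) had 8 peaks and 30.6%. Of 8 related receptors, 5 had a peak and 6 had H3K4me1, near the 51% and 74% of all genes. Cd28, the activating receptor that shares its ligands with Ctla4, had 5 peaks and a cover of 33.3%, and Icos, a costimulatory receptor of the same family, had 1 peak and 16.4%, against 0 peaks and 7.38% at Ctla4. Crtam, a receptor for Cadm1, had 3 peaks and 26.1%. Of 12 other ligands, 6 had a peak, near the 51% of all genes, and 10 had H3K4me1, against 74%. The genes of both PD-1 ligands, Cd274 (30.2%) and Pdcd1lg2 (25.7%), had 3 peaks each, while Cd80 and Tnfrsf14 had 0. Both PD-1 ligand genes lie on chromosome 19, and whether their windows shared peaks was not examined.

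Marker genes of NKC and of other cells were counted in the same windows. The study had singled out Ncr1, Klrb1 genes, Cd4 and Cd8 as examples from its own Runx3 data. The counts are therefore no independent check of the cell label. All 8 NKC markers (Ncr1, Klrb1c, Itga2, Tbx21, Eomes, Gzma, Prf1 and Il2rb) had Runx3 peaks and H3K4me1, with a median cover of 66% (29.8 to 82.2%), which Klrg1 exceeded and Cd226 came near. The median was 15% (0 to 33.3%) for 6 T cell, 7.96% (0 to 28.2%) for 5 B cell and 8.3% (0 to 47.7%) for 6 myeloid markers. Runx3 peaks were at 3 of 6 T cell, 4 of 5 B cell and 4 of 6 myeloid markers, against 51% of all genes. The presence of a peak in the window alone thus did not set the NKC markers apart. H3K4me1 was present at 4 of 6, 4 of 5 and 5 of 6 of these markers, against 74%. A Runx3 peak reached within 1 kb of the start at 7 of 8 NKC markers, against 25.8% of all genes. The same held for 0 of 6 T cell, 0 of 5 B cell and 1 of 6 myeloid markers. The median number of peaks was 6 at NKC, 0.5 at T cell, 1 at B cell and 1 at myeloid markers. Cd8a, Cd8b1, Ms4a1 and Lyz2 had neither mark. The T cell markers without a Runx3 peak were Cd4, Cd8a and Cd8b1, which the study had singled out. Markers of other cells with both marks were Itgam (8 peaks, 47.7% cover), which NKC also express, Cd28 (5 peaks, 33.3%) and Cd79a (3 peaks, 28.2%). Others were Cd3e (2 peaks, 27.3%), Cd14 (2 peaks, 20.5%) and Cd5 (1 peak, 21.5%), and the list is not complete. A mark is not expression, and the part of other cell types in the regions at the receptors was not tested.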

How the data were processed

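Chromatin of splenic NKC was fixed in 1% formaldehyde and sheared to about 300 bp. As described in the labels and methods, the authors aligned 40 bp reads to mm9 with ELAND (CASAVA 1.7 is named in the submitters' processing notes), kept unique reads and called regions with MACS against NIS. The methods state that reads of repeats were joined, whereas a label speaks of a first IP only, and the coordinates cannot settle which is right. The deposited lists hold coordinates (start and end) and 0 filled score columns, so neither depth nor signal could be read. Regions were compared by position only. Gene positions came from GENCODE vM1 on the same build, and the 20 chromosomes of the lists were found in the sequence. The 9 genes and the gene lists were chosen with earlier results of these data known. The named genes were the 9 receptors, the genes nearest to their peaks, and the genes of the lists, with values for up to 4 of each. A sequence at 1 peak is not reported here. Windows, overlaps and motifs were computed in Python 3.11.15 with numpy 2.4.6 and plotted with matplotlib 3.10.9, after testing on simulated regions. Alternatives changed the flank (0, 5 or 50 kb), the window, the overlap rule, the peaks kept, the gene set and the motif search.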

Additional observations from a re-analysis of the deposited data

How the results depend on the processing

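Of 121 values recomputed for 16 results, 84 stayed within 1.5 times the reported count or within the interval or spread set for it, and 37 moved. The results are counts and percentages, which cannot change sign. The 21 peaks in the windows became 11 with the gene bodies alone, 12 with only peaks wider than the median of the list and 32 in the regulatory domains that the GREAT tool defines by default. The share of receptor peaks with a RUNX match (100%) was 81% in the central 200 bp. The share of protein-coding genes with a Runx3 peak (51%) was 33.6% with no flank, 39.8% with 5 kb, 62.6% with 50 kb, 43.1% within 20 kb of the start, 35.1% with wide peaks only and 40.7% over all annotated genes. That with H3K4me1 (74%) was 63.3%, 67.7%, 79.7% and 70.4% under the same windows and 63.1% over all annotated genes. These shifts follow from the construction of each alternative, which takes in more or fewer bases, peaks or genes. Havcr2 had 0 peaks with no flank, with 5 kb, by nearest start and in its GREAT domain. Lag3 had 0 wide peaks, Klrg1 had 5 and Cd226 had 2. Cd226 had 3 within 20 kb of its start. Ctla4 had 4 peaks in its GREAT domain of 255 kb and Btla had 0 in one of 244 kb. No replicate could be left out and no paired analysis was possible because each antibody had 1 list. The lists give no read depth at a place without a region, which limits every count of 0.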
